A study of Mus musculus with 7 samples.

Results

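The genes described here are 10 long noncoding RNAs, chosen by symbol from the 50686 genes listed in each library: Malat1 and Neat1, which stay in the nucleus, Gas5, Snhg1, Snhg8, Snhg12 and Epb41l4aos, whose introns carry small nucleolar RNAs (snoRNAs), and the imprinted Meg3, H19 and Kcnq1ot1. Microglia with lipid droplets, stained by the dye Bodipy and sorted by FACS, were sequenced from C57BL/6 male mice, 4 Young (3 to 4 months) and 3 Old (21 to 22 months), 1 library per mouse. All 7 animals had ischemia by a 45 min occlusion of the middle cerebral artery and were studied 4 days later, without drug treatment. No sham-operated animal and no Bodipy-negative cell enters the comparison, so it concerns age within ischemic, Bodipy+ cells only.

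Long noncoding RNAs are transcribed and often spliced like mRNAs but act as RNA. Malat1 concentrates in nuclear speckles, bodies rich in splicing factors, and Neat1 is the scaffold of paraspeckles. In snoRNA host genes the introns are the product that guides modification of ribosomal and spliceosomal RNA, while the spliced exons of several hosts are degraded by nonsense-mediated decay. Imprinted noncoding RNAs are made from 1 parental copy of a gene domain, as H19 and Meg3 from the maternal and Kcnq1ot1 from the paternal chromosome.

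None of the 10 RNAs differed detectably between Old and Young. With SDs over 4 Young and 3 Old libraries, Malat1 averaged 1221 ± 151 and 1134 ± 216 CPM, respectively, and Neat1 79.3 ± 18.7 and 83.9 ± 49.4. The 5 snoRNA hosts summed to 134 ± 20.2 CPM in Young and 125 ± 28.1 in Old, and the 3 imprinted RNAs to 18.9 ± 3.51 and 21.1 ± 2.72. CPM is the count relative to the TMM-scaled library total, which sets the libraries on a common scale, and it is used to compare 1 gene between libraries. TPM, which also divides by length, is used to compare genes with each other.

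The quasi-likelihood test of edgeR called 0 of the 10 RNAs at an adjusted p of 0.05 and 0.803% of the 17559 genes tested. At an unadjusted p of 0.05 it called 0 of the 10, and 18.9% of all genes. limma-voom, with 143 calls among all genes, and DESeq2, with 1403, also called 0 of the 10. DESeq2 gave no adjusted p for H19, so it could not call that RNA. The ages overlapped for all 10 RNAs, both in CPM and in TPM, while 17.7% of all genes tested did not overlap in CPM. The median log2 fold change, Old minus Young, was -0.09 over the 10, with 3 positive and 7 negative values, and -0.01 over all genes. All 10 RNAs passed the minimum of 10 counts in at least 1 library. These counts do not show that the levels were equal. The 95% interval of the fold change stayed within 2-fold in either direction for 8 of the 10 and reached beyond it for 2, Meg3 and H19.

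**Figure D1:**
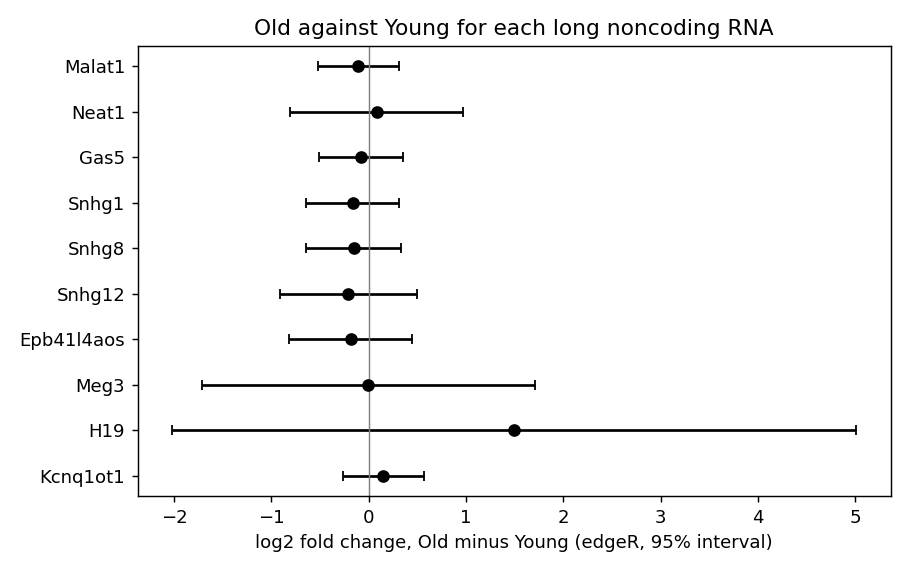
Log2 fold change, Old minus Young, of the 10 long noncoding RNAs with the 95% interval from edgeR (n = 3 Old, n = 4 Young). All 10 intervals include 0, and those of Meg3 and H19 are the widest.

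The labelled cell type was checked against 12 microglia markers, all detected, which summed to 23389 to 34501 CPM in Young and 12741 to 27822 in Old. Of the 11 tested 0 were called, but Fcrls was lower in Old without overlap (3903 ± 354 and 2385 ± 778 CPM). Library Old 3posI was lowest for the microglia sum, the other 6 lying at 23389 or above. It held 574 CPM of 9 markers of infiltrating leukocytes, against 8.50 to 104 elsewhere. Of these 9 markers 0 were called, but Ly6c2, Plac8 and Nkg7 were higher in all Old libraries than in any Young one. Young 23C held 285 CPM of 6 fibroblast markers, against 6.67 to 64.0 elsewhere. By age these sums were 32.3 to 285 CPM in Young and 6.67 to 40.5 in Old. Of the 6 markers 0 were called, but 2, Col1a1 and Lum, were lower in Old without overlap. Endothelial markers summed to 73.1 to 135 CPM in Young and 57.6 to 79.3 in Old, where 3 of 8 were lower without overlap. The transporter gene Slco1a4 was the 1 called (8.48 ± 1.71 and 2.69 ± 0.179 CPM, edgeR adjusted p = 0.0280). Of all 17559 genes tested, 1523 were higher and 1592 lower in Old without overlap. Astrocyte markers summed to 80.8 to 215 CPM, highest in Old 2posI. Those of the oligodendrocyte lineage summed to 122 to 166 CPM and mural ones to 32.9 to 103. Neuron markers summed to 1.51 to 4.42 CPM. Libraries held 36574083 to 53002386 expected counts, those of Old mice 36574083 to 46133564. In bulk samples, fewer cells of a type and less RNA per cell cannot be told apart.

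Poly(A)-primed libraries depend on how the 3′ end of a transcript is made, and the 2 nuclear RNAs are special in this respect. The long Neat1 transcript is cut by RNase P and protected by a triple helix rather than an added tail, as is the main form of Malat1, whereas the short Neat1 transcript is polyadenylated in the usual way. The last 60 bases of the annotated transcripts are shown for this reason, with the polyadenylation hexamer AATAAA in capitals where it occurs. They lie at chr19:5795690-5795749, chr19:5824708-5824767 and chr19:5842307-5842366 on the minus strand of GRCm38, each in the last exon of a transcript of GENCODE vM21.
Malat1: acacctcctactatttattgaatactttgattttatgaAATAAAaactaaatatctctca
Neat1, long transcript: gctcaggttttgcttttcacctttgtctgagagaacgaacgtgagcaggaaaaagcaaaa
Neat1, short transcript: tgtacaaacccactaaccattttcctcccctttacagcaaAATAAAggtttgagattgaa

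The long Neat1 transcript has 20771 bases and the short one 3004. The hexamer, searched on the transcript strand alone, ended 16 bases before the annotated end of Malat1 and 14 bases before that of the short Neat1 transcript. These letters were not in the last 60 bases of the long one. Of all 141515 annotated transcripts 27.2% held AATAAA in this window, and of 15811 transcripts of long noncoding RNA genes 29.4%.

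Host genes of snoRNAs often belong to the terminal oligopyrimidine (TOP) class, whose transcripts begin with a C followed by an unbroken run of pyrimidines. Promoters were given in RefSeq (GRCm38.p6) for 7 of the 10 RNAs, 4 of them hosts. The 40 bases around each annotated start of these 4 are printed, 20 before and 20 from it on, with the run of C and T from the start in capitals. They lie at chr1:161034581-161034620 and chr1:161035146-161035185 for the 2 starts of Gas5 and at chr19:8723467-8723506 for Snhg1 (all plus strand), at chr4:132308658-132308697 for Snhg12 (plus strand) and at chr3:123508317-123508356 for Snhg8 (minus strand).
Gas5, first start: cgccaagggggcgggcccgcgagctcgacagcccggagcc
Gas5, second start: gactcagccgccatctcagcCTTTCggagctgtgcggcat
Snhg1: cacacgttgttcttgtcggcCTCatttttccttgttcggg
Snhg8: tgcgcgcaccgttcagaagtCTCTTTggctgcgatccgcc
Snhg12: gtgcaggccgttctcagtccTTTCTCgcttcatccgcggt

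The run was 6 bases long in Snhg8 and Snhg12, 5 at the second start of Gas5, 3 in Snhg1 and 0 at the first start of Gas5. At the annotated start it began with T, not C, in Snhg12. Of all 32851 promoters given, 4.44% had a run of 5 or more, 2.93% of 6 or more and 10.7% of 3 or more. Among 14 other snoRNA hosts with a promoter, 3 had a run of 5 or more, with the longest run of each gene taken. This count is per gene, and the shares before it are per promoter. A run is a description of these letters, and an annotated start a few bases off would change it.

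Per length, Malat1 was the highest of the 10, at a mean of 2476 TPM over the 7 libraries, and ranked 2 among the genes annotated as long noncoding RNA. Gas5 followed at 253 TPM and rank 6. Neither the range of Malat1, 1773 to 3008 TPM, nor that of Gas5, 173 to 302, overlapped with that of the next RNA. Snhg8 at 40.3 TPM, Neat1 at 24.1, Snhg1 at 19.7, Snhg12 at 13.3 and Epb41l4aos at 10.4 formed a series in which each overlapped with its neighbours over the libraries. The 3 imprinted RNAs lay below all others in every library, with Meg3 at 0.514, Kcnq1ot1 at 0.307 and H19 at 0.204 TPM, and overlapped with each other.

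Abundant is therefore not a fitting word for the imprinted RNAs in these cells. Among long noncoding RNA genes Meg3 ranked 1195, Kcnq1ot1 1646 and H19 1987 by TPM. Kcnq1ot1 ranked 44 by counts, over a single listed transcript with a length of 84395 bases. Length also bears on Malat1. RSEM gave it a gene length of 677 to 723 bases, although its longest transcript has 6983. Its TPM thus rests on a length far below that of the longest transcript. How its reads were divided among its transcripts was not examined. For Neat1 the gene length was 3885 to 5806 bases, nearer to the short than to the long transcript.

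**Figure D2:**
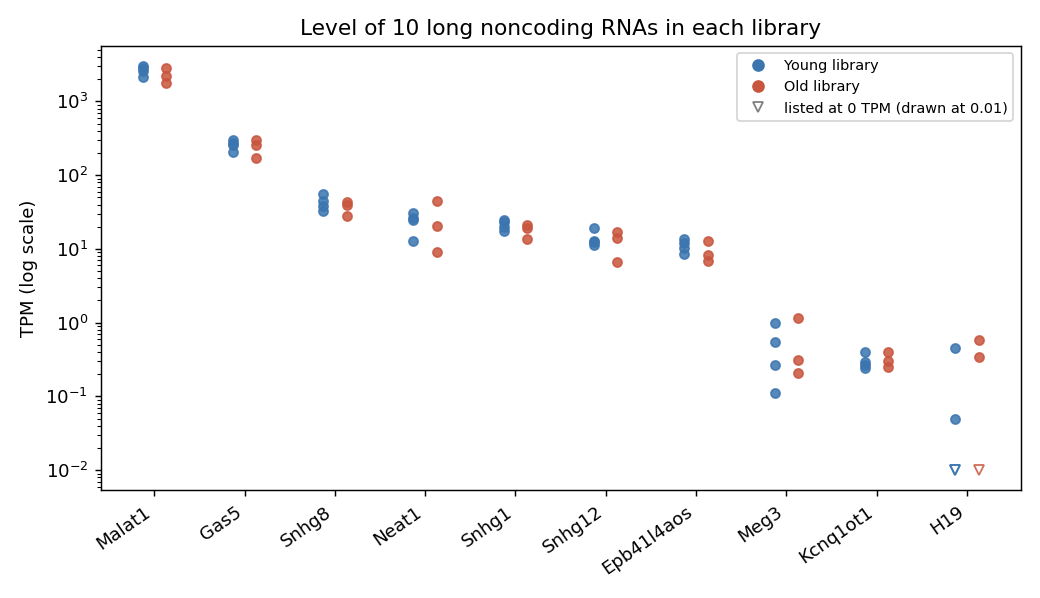
TPM (log scale) of the 10 long noncoding RNAs in each library, ordered by the mean over 7 libraries. Each point is 1 library, and open triangles mark the 3 libraries in which H19 was listed at 0. Malat1 and Gas5 stand apart at the top and the 3 imprinted RNAs at the bottom.

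Malat1, on chromosome 19 (5795690 to 5802672, minus strand), was the highest of the 10 in CPM too. Its level was 1198 CPM in Young 14C, 1403 in 18C, 1245 in 23C and 1036 in 29C, and 921 in Old 2posI, 1128 in 3posI and 1353 in 4posI. The highest library held 1.52 times the lowest, and the lowest and the second highest were both Old. The log2 fold change was -0.11 (SE 0.18, edgeR adjusted p = 0.791), with a 95% interval of 0.697 to 1.24 for the fold. Malat1 made up 0.0845% to 0.138% of all counts.

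Gm37376, a transcript of unconfirmed coding status annotated inside Malat1 on the opposite strand (5801941 to 5802393), took 5.93% to 8.89% of the counts assigned to the pair. The labels of all 7 libraries call them non-stranded, so reads of the pair cannot be told apart. Summed with Gm37376, a check added after the values were seen, Malat1 had a log2 fold change of -0.08.

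Neat1, next to Malat1 on the same strand (chromosome 19, 5824708 to 5845478), varied more between libraries than Malat1 or Gas5. It reached 86.5 CPM in Young 14C, 82.6 in 18C, 95.6 in 23C and 52.5 in 29C, and 35.5 in Old 2posI, 134 in 3posI and 81.8 in 4posI. Both the lowest and the highest library were Old, 3.78-fold apart, and the 4 Young libraries fell between them. The coefficient of variation was 23.5% in Young and 58.9% in Old, a difference that was not tested. The log2 fold change was 0.08 (SE 0.39, edgeR adjusted p = 0.930), with a fold interval of 0.572 to 1.96. Without Old 3posI it was -0.43 and without Old 2posI 0.45. Leukocyte markers were highest in 3posI, as given above, and their part in the level of Neat1 was not tested.

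**Figure D3:**
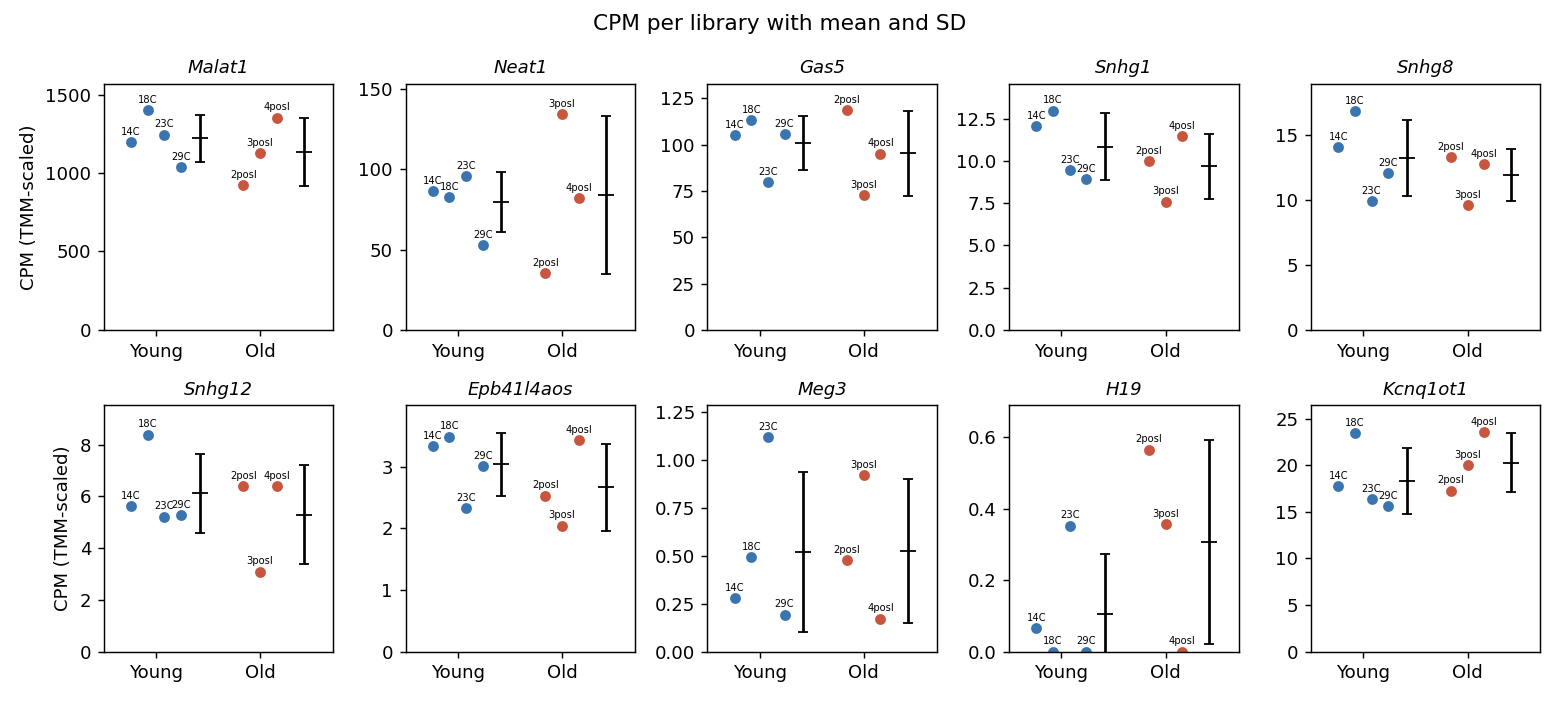
CPM of each long noncoding RNA per library (points, with the animal code), with the mean and SD of each age (bars, n = 4 Young and n = 3 Old; the lower SD bar of H19 is cut at 0). The ages overlap in all 10 panels.

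The genes most like these RNAs across the libraries were sought among 8145 genes of at least 10 CPM, by the root mean square difference of log2 CPM centred on the gene's mean. For Malat1 the closest were Mettl3, the catalytic subunit of the m6A RNA methyltransferase, at 0.0625, Acbd6 at 0.0659 and the forkhead factor Foxj3 at 0.0699. For Neat1 they included Gas2l3 at 0.161 and Ifrd1 at 0.206. Gas2l3, too, was lowest in Old 2posI (16.3 CPM) and highest in Old 3posI (51.7 CPM). These distances rest on 7 libraries and were the smallest of many.

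Gas5, which carries 10 annotated snoRNA genes in its span (chromosome 1, 161034422 to 161038539), was the highest of the hosts. Its level was 105 CPM in Young 14C, 113 in 18C, 79.7 in 23C and 105 in 29C, and 118 in Old 2posI, 72.6 in 3posI and 95.1 in 4posI. The highest and the lowest library were again both Old. The log2 fold change was -0.08 (SE 0.19, edgeR adjusted p = 0.849), and the fold interval 0.702 to 1.27.

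Snhg8 is a host with 1 annotated snoRNA gene in its span (chromosome 3, 123507552 to 123508404). It had 14.1, 16.9, 9.92 and 12.1 CPM in Young 14C, 18C, 23C and 29C, and 13.3, 9.61 and 12.8 in Old 2posI, 3posI and 4posI. Libraries Old 2posI and 4posI lay inside the Young range and 3posI just below it. Its fold interval was 0.642 to 1.26.

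Snhg1, with 8 snoRNA genes (chromosome 19, 8723475 to 8726443), had 12.04, 13.0, 9.47 and 8.90 CPM in the Young libraries in the same order, and 9.98, 7.59 and 11.4 in the Old ones. Again 3posI alone lay below the Young range, and the fold interval was 0.641 to 1.24.

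Snhg12, with 5 snoRNA genes (chromosome 4, 132308623 to 132311024), had 5.63, 8.39, 5.22 and 5.27 CPM in Young 14C, 18C, 23C and 29C, and 6.41, 3.09 and 6.39 in the Old libraries. Young 18C stood above and Old 3posI below the other 5, which lay within 5.22 to 6.41. Its log2 fold change of -0.21 (SE 0.31, edgeR adjusted p = 0.752) became 0.06 without 3posI.

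Epb41l4aos, with 1 snoRNA gene, was the lowest host at 3.33, 3.49, 2.33 and 3.01 CPM in Young and 2.53, 2.04 and 3.43 in Old. Its fold interval was 0.567 to 1.36. The 25 snoRNA genes inside the 5 hosts held at most 10.55 expected counts each and 12.22 to 38.58 together per library, so the values above are those of the host genes and not of their snoRNAs.

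The hosts shared their lowest library, a pattern that was noticed after the values were seen. All 5 were lowest in Old 3posI, and 4 of the 5 were highest in Young 18C. Of all genes tested, 20.3% were lowest in 3posI, 21.1% lowest in Old 2posI and 16.9% highest in 18C. Among genes annotated as long noncoding RNA these shares were 19.7%, 27.5% and 24.1%. Among 14 other snoRNA hosts only 1 was lowest in 3posI, while 8 were lowest in Old 2posI. Malat1 and Neat1 were both lowest in 2posI. Microglia markers were lowest and leukocyte markers highest in 3posI, and their part in the host levels was not tested.

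**Figure D4:**
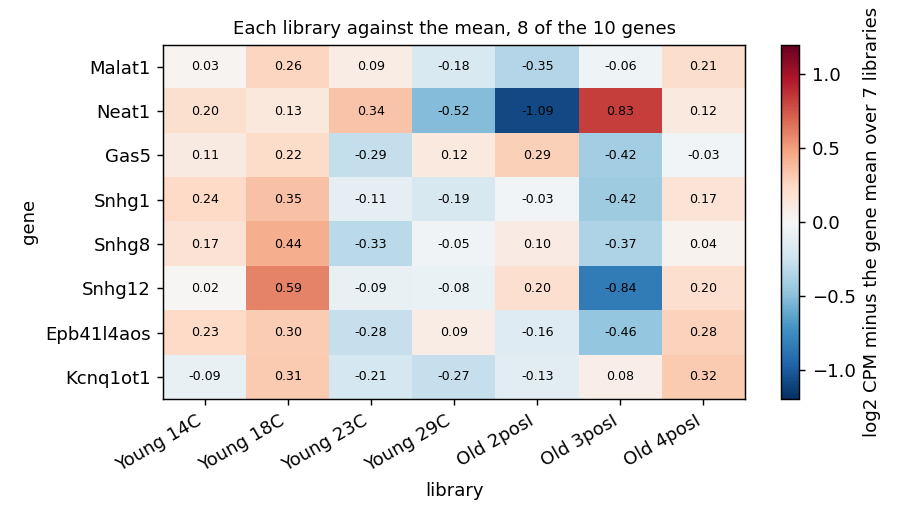
Log2 CPM of 8 of the long noncoding RNAs minus the gene's mean over the 7 libraries (colour and printed value; Meg3 and H19, which have few counts, are left out). The 5 snoRNA hosts reach their lowest values, -0.37 to -0.84, in Old 3posI, where Neat1 has its highest, 0.83.

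Kcnq1ot1 (chromosome 7, 143203458 to 143296549, minus strand), the antisense RNA that silences neighbouring genes of the Kcnq1 domain in cis, had the smallest ratio between highest and lowest library of all 10. It had 17.8 CPM in Young 14C, 23.5 in 18C, 16.3 in 23C and 15.6 in 29C, and 17.3 in Old 2posI, 19.98 in 3posI and 23.6 in 4posI. That ratio was 1.51, beside 1.52 for Malat1, and the ages overlapped. The log2 fold change was 0.15 (SE 0.18, edgeR adjusted p = 0.697), with a fold interval of 0.830 to 1.48.

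Kcnq1, a potassium channel gene, spans Kcnq1ot1 on the opposite strand and had few reads. Its expected counts were 12, 5, 58.67 and 21.94 in the Young libraries and 0, 1.4 and 0 in the Old ones. The ages did not overlap, but the difference did not pass the test (edgeR adjusted p = 0.0895). Kcnq1ot1 itself had 580 to 1092 counts, and in libraries labelled non-stranded its reads and those of Kcnq1 cannot be told apart where the genes overlap.

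Meg3 (chromosome 12, 109541001 to 109571726) was detected in every library at 8 to 56.69 expected counts. It had 0.281, 0.492, 1.12 and 0.194 CPM in Young 14C, 18C, 23C and 29C, and 0.477, 0.920 and 0.173 in Old 2posI, 3posI and 4posI. Libraries were up to 6.47-fold apart, and each age held low and high ones. The fold interval of 0.305 to 3.26 leaves a difference of 3-fold in either direction undecided. Meg3 was highest in Young 23C, the library with the most fibroblast marker counts, and their part was not tested.

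H19 (chromosome 7, 142575529 to 142578143) was at the edge of detection. Counts were 3, 0, 18 and 0 in Young 14C, 18C, 23C and 29C, and 19, 14 and 0 in Old 2posI, 3posI and 4posI. A count of 0 allows up to 3 counts, or 0.0671 CPM in Young 18C, 0.0645 in 29C and 0.0648 in Old 4posI, counting error alone. Each age held a library with 14 or more counts and a library with 0, and the log2 fold change of 1.49 had an interval from -2.02 to 5.01 (edgeR adjusted p = 0.636). It was 0.72 without Old 2posI and 3.64 without Young 23C. Without Old 4posI its CPM no longer overlapped between ages.

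Partner genes of the nuclear RNAs gave no call. Of 14 paraspeckle protein genes tested, 0 passed the adjusted threshold, 2 were higher and 2 lower at an unadjusted p of 0.05, and the median log2 fold change was -0.01. Hnrnpk, the most abundant, had 710 ± 37.5 CPM in Young and 672 ± 30.6 in Old (SD). Of 14 nuclear speckle genes 0 passed, with 2 higher and 2 lower unadjusted. Srsf5, a splicing factor and the highest of them in TPM, had 329 ± 27.1 CPM in Young and 279 ± 28.0 in Old, without overlap (edgeR adjusted p = 0.363). In all, 2 speckle genes were higher and 2 lower in Old without overlap. Of 12 genes that process or stabilise the Malat1 and Neat1 ends 0 passed, with 1 higher unadjusted and 3 higher without overlap. Over all genes tested, 17.7% did not overlap between ages.

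Around the hosts, 0 of 14 other snoRNA host genes passed, and Snhg5, Snhg11 and Snhg17 were lower in Old at an unadjusted p of 0.05. At that p, 18.9% of all genes were called. Snhg11 had few counts, at 0.478 ± 0.324 CPM in Young and 0.113 ± 0.0476 in Old. The median log2 fold change of the 14 was -0.32, against -0.08 to -0.21 for the 5 hosts of the set. Snhg6, the highest of the 14 per length, had 18.96 ± 4.201 CPM in Young and 19.6 ± 1.77 in Old. The protein components of snoRNPs gave 0 of 11 past the threshold and 1 lower unadjusted, with Nop56, a core box C/D protein, at 83.6 ± 3.06 and 85.8 ± 12.7 CPM.

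Among 13 nonsense-mediated decay factors Smg5 fell, and it was the only one of them called. Smg5 helps to recruit decay enzymes to the phosphorylated helicase Upf1. It had 41.0, 44.4, 38.8 and 38.1 CPM in Young and 13.6, 21.8 and 20.4 in Old, a log2 fold change of -1.12 (SE 0.17, edgeR adjusted p = 0.0365). Rbm8a, a core protein of the exon junction complex, had 56.5 ± 2.75 and 77.1 ± 8.45 CPM, without overlap between ages but short of the threshold (edgeR adjusted p = 0.0995). Other genes of this complex in the list did not share its rise without overlap. Casc3 was lower in Old without overlap, at 28.7 ± 6.39 and 18.99 ± 3.22 CPM (edgeR adjusted p = 0.172). Eif4a3 (90.3 ± 7.46 and 93.8 ± 8.70 CPM) and Magoh (16.9 ± 1.44 and 21.9 ± 5.60 CPM) overlapped between ages. Of the 13, 3 were higher and 2 lower at an unadjusted p of 0.05.

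Among genes listed around the imprinted RNAs, Lsp1, a leukocyte protein that binds F-actin, rose from 81.1 ± 3.46 CPM in Young to 162 ± 20.4 in Old. The log2 fold change was 1.00 (SE 0.12, edgeR adjusted p = 0.0236). Lsp1 was the 1 gene called of 14 tested near H19 and Kcnq1ot1, and was highest in Old 3posI at 183 CPM. Whether it is imprinted in these cells was not tested. Of 3 genes tested around Meg3, 0 passed and Yy1 was higher unadjusted. Among 10 imprinting control factors Ctcf, which binds the unmethylated H19 control region and organises chromatin, rose from 19.2 ± 1.89 to 34.2 ± 3.77 CPM, a log2 fold change of 0.84 (SE 0.13, edgeR adjusted p = 0.0387).

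With 1 library left out, Smg5 and Ctcf passed without Old 3posI and not without any of the other 6, and Lsp1 passed without 3posI or 4posI alone. The log2 fold changes stayed between -1.25 and -0.94 for Smg5, 0.76 and 0.92 for Ctcf and 0.90 and 1.08 for Lsp1 in these fits, in which 1 to 159 of all genes were called. When RSEM's effective gene lengths entered the fit as an offset, the log2 fold change of Ctcf was 0.43 (edgeR adjusted p = 0.278). By limma on log2(TPM + 1) and log2(TPM + 0.1), it was 0.32 and 0.35 for Ctcf (adjusted p = 0.444 and 0.431), and Smg5 was short of the threshold (adjusted p = 0.0577 and 0.0541). The 3 genes did not overlap between ages in CPM.

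Of 16 further long noncoding RNAs tested, 0 passed the threshold, with 1 higher and 2 lower at an unadjusted p of 0.05. Tug1, singled out after its values were seen, had 118, 133, 79.4 and 120 CPM in Young 14C, 18C, 23C and 29C and 61.9, 59.3 and 59.6 in Old. All Old libraries lay below all Young ones, with a log2 fold change of -0.90 (SE 0.18) at an edgeR adjusted p of 0.0579. DESeq2 called it, as did edgeR without a filter on low counts and edgeR without Young 23C. Over the whole class, 7 of 2572 long noncoding RNA genes were higher and 2 lower past the adjusted threshold, and 10.6% did not overlap between ages.

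The share of counts in long noncoding RNA genes was 0.636% to 1.45% in Young and 1.90% to 2.39% in Old. One gene of the class, AY036118, held 0.00554% to 0.721% of counts in Young and 1.24% to 1.58% in Old. Without it the share was 0.631% to 0.845% in Young and 0.588% to 0.816% in Old, and Malat1 made up 14.4% to 18.99% of what remained. Ribosomal RNA genes also differed without overlap, at 3.52% to 4.24% of counts in Young and 1.62% to 2.84% in Old, and their part in these shares was not tested. Leaving them out of the fit, a check added after the values were seen, called 0 of the 10 RNAs.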

How the data were processed

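Expected counts, TPM, gene lengths and effective lengths were analysed for 7 libraries. RSEM, run by the authors on STAR alignments to GRCm38 with GENCODE m15 after trimming with skewer, gave the values. The expected counts, as deposited, are not normalized. Per gene length and library, the authors also deposited TPM. For Bodipy+ cells cDNA was made by Smart-seq2, which amplifies by PCR without molecular identifiers, so limits for a count of 0 cover counting error only.

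Expected counts were rounded. The 17559 autosomal genes whose count exceeded 10 in some library were kept. edgeR 4.0.16 in R 4.3.3 gave TMM factors (0.952 to 1.05) and the two-sided quasi-likelihood test with age as the only term, adjusted over all genes by Benjamini-Hochberg. Values of log2 CPM used a prior count of 1. Alternatives were limma-voom (limma 3.58.1), DESeq2 1.42.0, RLE and upper-quartile factors, 2 other filters, X, Y and M kept, the length offset, limma on log2(TPM + 1) and log2(TPM + 0.1), and each library left out. Summing Malat1 with Gm37376 and leaving out ribosomal RNA genes were added after the values were seen.

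Animal codes name the libraries. Positions came from GENCODE vM21, in which 224 of 50686 identifiers were not found. The rule for named genes took the 10 RNAs, the called genes and the 2 with the highest TPM of each related list, genes overlapping or starting within 5000 bases of an RNA, and the 3 closest to Malat1 and Neat1. Not every gene the rule takes is printed, and 1 result is not reported here. The RNAs and lists were chosen with earlier results of these data known.

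The fit was tested on simulated counts. A first pass rule on the share of changed genes recovered was not met, neither with 1 common spread nor with the spread of each gene, and was then replaced, with that recovery known, by rules on bias and false calls. Many of the changed genes went uncalled there, mainly in genes with few counts or wide spread and, for the smaller changes, in abundant genes too, so for all 10 RNAs the intervals, not the absence of calls, show what the data allow.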

Additional observations from a re-analysis of the deposited data

Results flagged for a closer look

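Snhg12 in the Young mice held 1 library far from the others: 18C at 8.39 CPM, against 5.22 to 5.63 in 14C, 23C and 29C. The gap to the nearest library was 0.870 of the whole range (Dixon's ratio). In 14 such comparisons, chance alone gives about 0.7.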

How the results depend on the processing

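No alternative called any of the 10 RNAs. Of 181 recomputed log2 fold changes 165 kept their direction and 16 reversed. Neat1 was -0.080 with limma-voom, -0.13 on log2(TPM + 1) and -0.15 on log2(TPM + 0.1). Meg3 was 0.0042 with RLE factors, 0.0062 with DESeq2, 0.34 with the length offset, 0.062 on log2(TPM + 1) and 0.17 on log2(TPM + 0.1). Leaving out 1 library at a time gave ranges of -0.26 to 0.023 for Malat1, -0.43 to 0.45 for Neat1, -0.27 to 0.083 for Gas5, -0.37 to 0.064 for Snhg12, -0.70 to 0.69 for Meg3 and 0.72 to 3.64 for H19. It left 0 to 1 of the RNAs without overlap between ages, the 1 being H19 without Old 4posI, and 0 to 3 calls in the related lists. Calls over all genes ranged from 1 to 159 without 1 library, and were 1403 with DESeq2, 288 without a filter on low counts, 213 with the length offset, 71 on log2(TPM + 0.1) and 64 on log2(TPM + 1). The scale of log2(TPM + 0.1) moved the median of all genes to -0.13. No paired analysis was possible because the animal codes carry no numbers shared between the ages. Depth limits H19 and Meg3, with at most 19 and 56.69 counts.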
